A study of Mus musculus with 8 samples.

Results

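The epithelial sodium channel and the genes around its response to aldosterone were examined in mouse colon RNA. The genes were the 3 channel subunits (Scnn1a, Scnn1b and Scnn1g), a protease that activates the channel (Prss8), the ubiquitin ligase that removes it from the membrane (Nedd4l), the kinase Sgk1, the mineralocorticoid receptor (Nr3c2), the enzyme Hsd11b2 and the corticosteroid target Tsc22d3. These 9 genes were chosen by name for their place in the pathway, by a rule that used no measured value but with earlier results of these data known. All 9 had 1 entry each among the 52143 genes of the deposited data, and all 9 were among the 13164 genes with a TPM (transcripts per 1000000, a level corrected for transcript length) of at least 1 in at least 4 samples.

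There were 4 control and 4 Siglec-XII samples of colon RNA. Siglec-XII mice (SIGLEC12-Villin1-Cre-ERT) carried 1 floxed allele of human SIGLEC12 in the ROSA26 locus under a CAG promoter, behind an EGFP and stop cassette flanked by loxP sites, together with Villin1-Cre-ERT. Controls were littermates with Villin1-Cre-ERT alone, so both groups carried the Cre transgene, which the Villin1 promoter drives in intestinal epithelium and not in muscle or stroma. Both groups received tamoxifen (10 mg/ml) on 5 days from an age of 8 weeks, and distal colon was taken 7 days after the last dose. SIGLEC12, EGFP and Cre had no entry in the data, and no check of the genotypes against the transgene was possible. The labels do not say whether each sample is a separate mouse, the design text speaks of 3 mice per condition, and the study's methods describe 3 technical replicate libraries per sample. SDs, SEs and P values therefore measure the spread between these samples, which may be partly technical.

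The channel lets sodium enter across the apical membrane of surface cells of the distal colon, and the sodium pump moves it on to the blood side. Aldosterone binds the mineralocorticoid receptor and induces Sgk1, whose product phosphorylates the Nedd4l ligase and so keeps more channel at the membrane. In the distal colon the hormone is best known for raising the mRNA of the β and γ subunits, whereas α subunit mRNA is present without it. Hsd11b2 inactivates glucocorticoid in the same cells, which would otherwise occupy the receptor. Hormone levels, salt intake and sodium transport were not analysed here.

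The receptors for mineralocorticoid and glucocorticoid share a DNA element, an inverted repeat of AGAACA with a spacer of 3 bases. Promoter sequences were read to show where this element lies in the best known target, Sgk1, and to show the stretches before the start sites of the neighboring genes Scnn1g and Scnn1b. The sequences are from RefSeq (GRCm38.p6), in windows from 250 bases before to 50 bases after each start site, and only bases before the start are printed. Windows were read for 5 of the 9 genes (Scnn1b, Scnn1g, Sgk1, Nr3c2 and Tsc22d3), 12 windows in all. Capitals mark the full element in Sgk1 (chr10:21993640-21993789, plus strand) and the GC box GGGCGG, on either strand, in Scnn1g (chr7:121734229-121734478, plus strand) and Scnn1b (chr7:121864788-121865037, plus strand).
Sgk1: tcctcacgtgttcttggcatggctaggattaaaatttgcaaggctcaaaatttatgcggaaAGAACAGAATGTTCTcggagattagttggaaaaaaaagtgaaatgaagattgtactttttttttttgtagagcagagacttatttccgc
Scnn1g: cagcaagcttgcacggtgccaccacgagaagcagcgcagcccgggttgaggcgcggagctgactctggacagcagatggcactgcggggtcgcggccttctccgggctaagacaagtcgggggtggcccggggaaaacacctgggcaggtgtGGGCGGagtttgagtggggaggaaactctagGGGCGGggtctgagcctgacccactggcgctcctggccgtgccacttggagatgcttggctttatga
Scnn1b: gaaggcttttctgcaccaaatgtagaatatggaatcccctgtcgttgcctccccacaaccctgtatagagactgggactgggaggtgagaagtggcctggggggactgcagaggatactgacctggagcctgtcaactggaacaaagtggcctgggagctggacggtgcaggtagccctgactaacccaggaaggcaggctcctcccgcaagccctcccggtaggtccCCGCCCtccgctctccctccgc

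The full element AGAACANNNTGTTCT was present in 3 of 32851 mouse promoter windows (0.00913%), and 1 of these was the Sgk1 window shown above. It lies at chr10:21993701-21993715, 189 bases before the start site at 21993890, and in introns of 5 longer Sgk1 transcripts with no annotated exon over it. The single repeat unit TGTTCT, which the full element holds on both strands, was found in 4 of the 12 windows, all of Sgk1 or Tsc22d3, and in 19.0% of all windows. No such unit lay in the windows of Scnn1g and Scnn1b, which held 2 and 1 GC boxes. A GC box was found in 35.7% of all windows. Such matches describe the letters in these windows and not binding.

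In control colon the 9 genes covered a wide range of levels. Hsd11b2 was the most abundant, at 329 TPM ± 35.6 (SD, n = 4), followed by Sgk1 at 206 TPM ± 37.9 and Scnn1a at 75.0 TPM ± 10.7. The ranges of these neighbors did not overlap, and their order held in each of the 8 samples. Nr3c2 (44.4 TPM ± 11.7), Prss8 (43.5 TPM ± 6.07), Tsc22d3 (39.7 TPM ± 2.87) and Nedd4l (30.99 TPM ± 5.86) formed a middle group in which the ranges of neighbors in the order overlapped, so that neighboring levels did not differ beyond their spread. Across the group they could: each control value of Prss8 (38.0 to 52.2 TPM) was above each of Nedd4l (23.0 to 36.8 TPM). The β and γ subunits were the lowest, with Scnn1g at 13.4 TPM ± 3.21 and Scnn1b at 7.84 TPM ± 1.01, and Scnn1g was above Scnn1b in each of the 8 samples. The median gene tested was at 13.0 TPM, so the α subunit and Hsd11b2 were well above it (87.2 and 96.9 percentile of mean level), and Scnn1b was below it (37.3 percentile).

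The spread between control samples also differed among the genes. The SD of log2(TPM + 1) was 0.44 for Nr3c2, which placed it at the 88.1 percentile of all genes tested, and 0.10 for Tsc22d3, at the 18.4 percentile. Scnn1g had an SD of 0.31 (77.4 percentile) and Scnn1b one of 0.17 (42.2 percentile), beside a median of 0.19 over all genes. Control 1 decided the spread of Nr3c2 and Scnn1g, whose SDs were 0.05 and 0.17 without it, and that of Tsc22d3 was 0.07 without control 2. For Nr3c2, control 1 was at 27.1 TPM, and the other 3 controls were between 48.1 and 52.0 TPM.

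**Figure D1:**
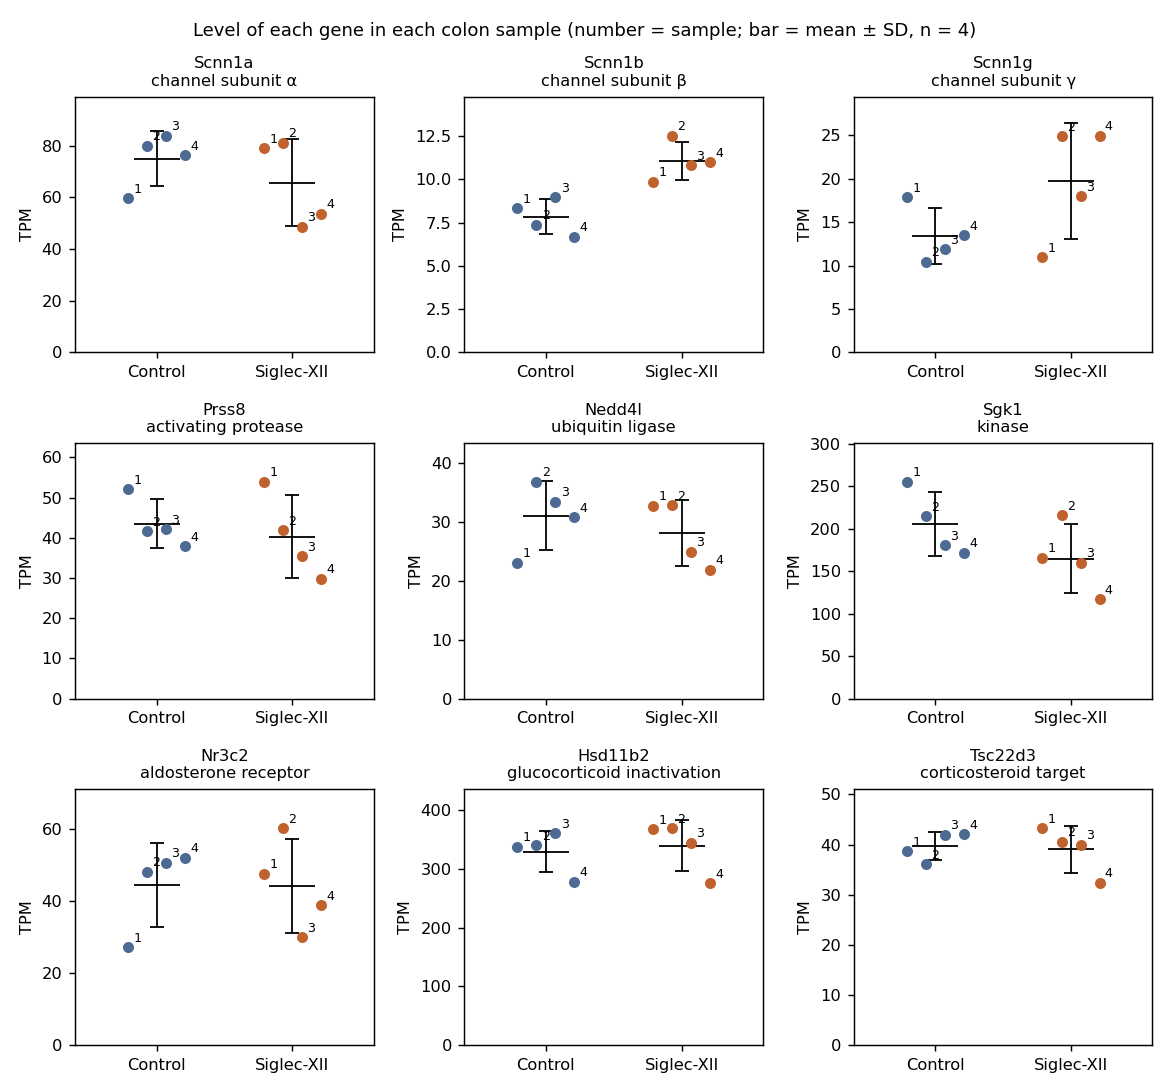
TPM (vertical axes, linear, from 0) of the 9 genes in 4 control (blue) and 4 Siglec-XII (orange) samples, with the sample number beside each point and the mean ± SD as a black bar. Scnn1b is the gene whose groups do not overlap, with Siglec-XII samples between 9.87 and 12.5 TPM and controls between 6.69 and 8.97 TPM.

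With respect to Siglec-XII expression, the β subunit was the gene of the 9 whose groups did not overlap. The 4 Siglec-XII samples all lay above the highest control for Scnn1b, 3 of 4 did so for Scnn1g, and in Scnn1a and the other 6 genes the groups also overlapped. None of the 9 genes passed an adjusted P of 0.05 in limma across all genes (0 of 9, smallest adjusted P = 0.515), a limit that 5 of 13164 genes (0.038%) passed. At an unadjusted P of 0.05, 1 of the 9 was higher and 0 were lower, beside 1.19% of all genes higher and 7.67% lower. Likewise, 1 of the 9 was higher without overlap and 0 were lower without overlap, beside 1.05% and 4.06% of all genes.

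Scnn1b (ENSMUSG00000030873; chr7:121865038-121918514, plus strand, GRCm38) encodes the β subunit, which carries one of the sites that the Nedd4l ligase recognizes. Its level was 8.32, 7.38, 8.97 and 6.69 TPM in control samples 1 to 4. In Siglec-XII samples 1 to 4 it was 9.87, 12.5, 10.8 and 10.97 TPM. Every Siglec-XII sample was above the highest control, and the lowest of them, Siglec-XII 1, lay closest to the controls. The group means were 7.84 TPM ± 1.01 and 11.04 TPM ± 1.10 (SD, n = 4 each), a ratio of 1.41. The log2 difference, Siglec-XII minus control, was 0.45 (SE 0.13, 95% interval 0.15 to 0.74), which is a fold of 1.11 to 1.67 on the TPM + 1 scale. The limma P was 0.00736 before adjustment and 0.515 after it, and the gene ranked 98 by P among the 13164 tested. A two-sided exact permutation test over the 70 labelings of the samples gave P = 0.0286, the smallest value that this design allows. Over 21 alternatives in processing the limma adjusted P was between 0.113 and 1.

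Scnn1g (ENSMUSG00000000216; chr7:121734479-121768475, plus strand) encodes the γ subunit. Control samples 1 to 4 were at 17.9, 10.5, 11.9 and 13.5 TPM. Siglec-XII samples 1 to 4 were at 10.9, 24.9, 18.0 and 25.0 TPM. Siglec-XII 1 fell among the controls, Siglec-XII 3 lay just above control 1, and Siglec-XII 2 and 4 were well above all controls. The mean was 13.4 TPM ± 3.21 in controls and 19.7 TPM ± 6.69 in Siglec-XII samples, a difference within the spread (log2 difference 0.48, 95% interval -0.12 to 1.08, limma adjusted P = 0.515, exact permutation P = 0.171). Siglec-XII 1 decided the value: without it the log2 difference was 0.72, with a limma adjusted P of 0.270, and over 21 alternatives the adjusted P was between 0.230 and 1.

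Scnn1a (ENSMUSG00000030340; chr6:125320659-125344943, plus strand) encodes the α subunit, which the channel needs to conduct. Control samples 1 to 4 were at 59.7, 80.1, 83.9 and 76.4 TPM. Siglec-XII samples 1 to 4 were at 79.1, 81.2, 48.7 and 53.6 TPM. Control 1 and Siglec-XII 3 and 4 formed a low set and the remaining 5 samples a high one, so the gene split within both groups. The log2 difference was -0.21 (95% interval -0.64 to 0.22, limma adjusted P = 0.603, exact permutation P = 0.314). Without Siglec-XII 3 and 4 the difference was 0.11, of the opposite sign.

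**Figure D2:**
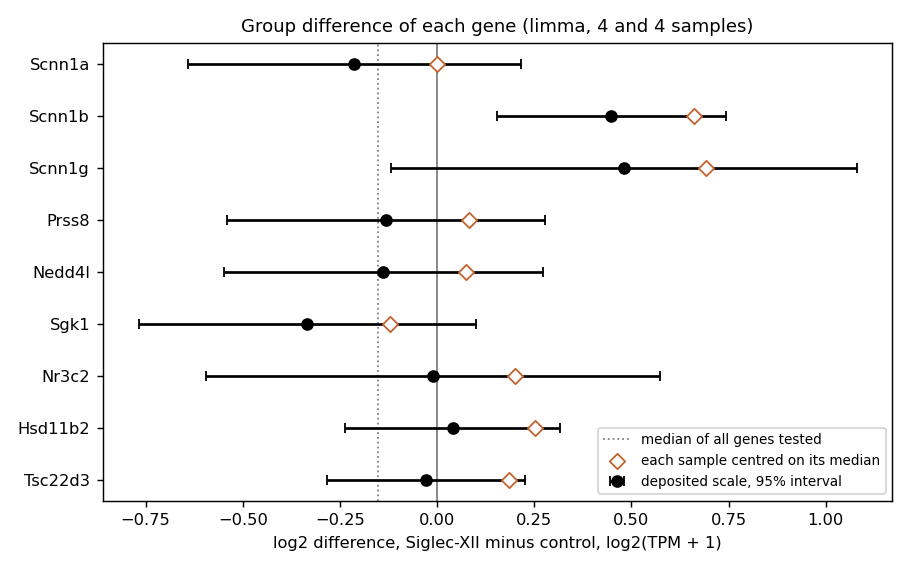
Log2 difference of each of the 9 genes, Siglec-XII minus control, on the deposited log2(TPM + 1) scale (black points with 95% intervals from limma) and after each sample was centred on the median of the genes tested (open diamonds). The interval of Scnn1b (0.15 to 0.74) is the one that leaves out 0, and centring moves every gene upward.

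Across all genes tested the median log2 difference was -0.15, but the shift was not common to the group. The median gene deviated from the 8-sample mean by 0.10, 0.06, -0.16 and -0.30 in Siglec-XII samples 1 to 4 and by -0.05, 0.15, 0.08 and 0.11 in control samples 1 to 4, and without Siglec-XII 3 and 4 the median difference was 0.003. Of the genes at an unadjusted P of 0.05, 157 were higher and 1010 lower as deposited, and 1137 were higher and 285 lower after each sample was centred on its median. On the deposited scale 3 of the 9 genes were above 0 and 6 below, with a median of -0.03. Centring adds the same amount to the difference of every gene. After it 7 of the 9 were above 0, with a median of 0.18 beside 0.06 over all genes tested. Scnn1b and Scnn1g were above 0 under both, at 0.66 and 0.69 after centring, whereas Scnn1a went from -0.21 to near 0 (-0.00046).

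Ratios between genes within a sample do not depend on how the sample is scaled, although a shift that moves with transcript length, described below for Scnn1a, can enter them. The ratio of Scnn1b to Scnn1a was 10.7% ± 2.34 in the 4 controls and 17.6% ± 4.47 in the 4 Siglec-XII samples (SD), and 3 of 4 Siglec-XII samples were above the highest control. For Scnn1g to Scnn1a the ratio was 18.7% ± 7.74 and 32.0% ± 13.8, again with 3 of 4 Siglec-XII samples above the highest control. Siglec-XII 1 was the sample among the controls in both ratios. In contrast, the ratio of Scnn1g to Scnn1b was 1.73 ± 0.42 for controls and 1.76 ± 0.50 for Siglec-XII samples, and the groups overlapped. The α subunit made up 69.5%, 81.8%, 80.1% and 79.1% of the summed TPM of the 3 subunits in control samples 1 to 4. In Siglec-XII samples 1 to 4 its share was 79.2%, 68.5%, 62.8% and 59.9%. Siglec-XII 2, 3 and 4 were below every control, and control 1 was the lowest of the controls.

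**Figure D3:**
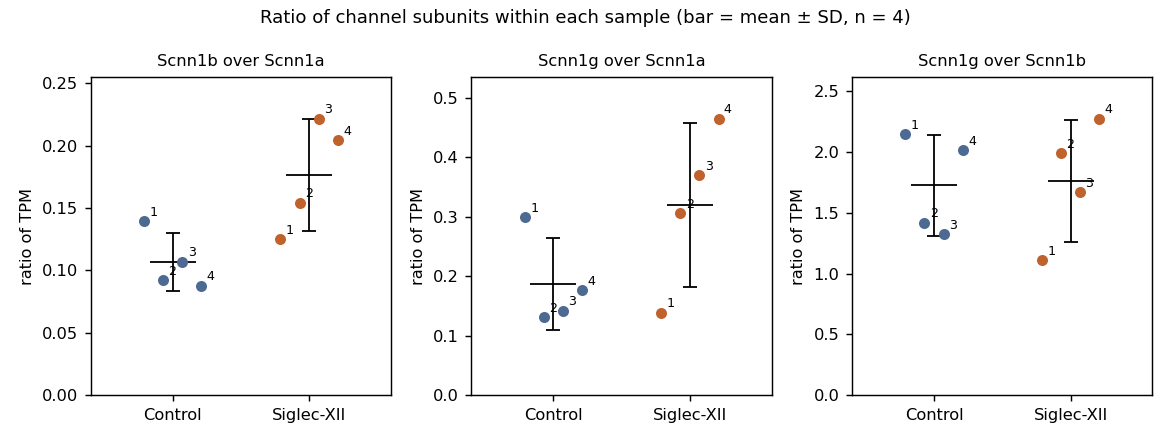
Ratio of TPM between channel subunits within each sample (vertical axes, linear, from 0), with sample numbers and the mean ± SD as a black bar. In the left and middle panels Siglec-XII 2, 3 and 4 lie above all controls, and in the right panel the groups overlap (1.73 and 1.76 on average).

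The γ and β genes are neighbors on chromosome 7, with 96.6 kb between the end of Scnn1g and the start of Scnn1b. Over the 8 samples their log2 levels gave r = 0.679 (exact permutation P = 0.0664, adjusted P = 0.266 over 4 relations) and rho = 0.690 (exact permutation P = 0.0694, adjusted P = 0.278). Without control 4 and Siglec-XII 2, the samples farthest from the median of Scnn1b, r was 0.611. On deviations from the group means r was 0.504, and with 4 samples in each group no value was computed within a group. Because the Scnn1a values fell into separate sets (between 6.27 and 6.41 in 5 samples and between 5.64 and 5.92 in 3, on the log2 scale), no pooled r is given for its relations with Scnn1b and Scnn1g.

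Other genes near the subunits were read beside them. Within 100 kb of Scnn1b or Scnn1g, Cog7 (log2 difference -0.13), which encodes a Golgi complex subunit and overlaps Scnn1b on the opposite strand without sharing exonic bases, and Gga2 (-0.36), a Golgi adaptor, overlapped between the groups. Usp31, a ubiquitin protease gene, was lower in every Siglec-XII sample (log2 difference -0.40, limma adjusted P = 0.515) and was below the unadjusted limit of 0.05. Among all genes tested, 4.06% were lower without overlap and 7.67% were lower at the unadjusted limit. None of these 3 neighbors lay above 0 on the deposited scale, unlike Scnn1b and Scnn1g. After centring, Cog7 was at 0.08 and the other two remained below 0. Within 100 kb of Scnn1a, 5 genes were tested (Vamp1, Tapbpl, Ltbr, Tnfrsf1a and Plekhg6), with log2 differences between -0.36 and 0.08 and no call at an unadjusted P of 0.05.

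The genes most like each subunit were those with the highest r over the 8 samples on deviations from the group means. They were picked from the 13164 genes tested, so their r is high by selection, and shared regulation was not tested. For Scnn1a these were Fbrsl1 (r = 0.997), Abat (r = 0.991) and Hectd4 (r = 0.991). Taking out the group means keeps the separate low and high sets of Scnn1a samples, so these r values can reflect that split. For Scnn1b they were Zfp418 (r = 0.968), Hist1h1d (r = 0.926) and Pgk1-rs7 (r = 0.889), and for Scnn1g they were Gm26901 (r = 0.993), Gm25509 (r = 0.970) and Ufm1 (r = 0.929). Neither of the other subunits was near the top of any of these orders: Scnn1g ranked 271 for Scnn1b, and Scnn1b ranked 722 for Scnn1g.

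Prss8 (ENSMUSG00000030800), prostasin, is a membrane-anchored protease that raises channel activity. It was at 52.2, 41.6, 42.2 and 38.0 TPM in control samples 1 to 4 and at 53.9, 41.9, 35.5 and 29.8 TPM in Siglec-XII samples 1 to 4. Sample 1 was the highest of each group, and the groups overlapped (log2 difference -0.13, 95% interval -0.54 to 0.28, limma adjusted P = 0.729). Of its exonic bases, 6.59% overlap Kat8 on the opposite strand.

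Nedd4l (ENSMUSG00000024589) encodes the ligase that marks the channel for removal. Its level was 23.0, 36.8, 33.4 and 30.7 TPM in control samples 1 to 4 and 32.7, 32.9, 24.9 and 21.8 TPM in Siglec-XII samples 1 to 4. The low samples were control 1 and Siglec-XII 3 and 4, as for Scnn1a. The log2 difference was -0.14 (95% interval -0.55 to 0.27, limma adjusted P = 0.715).

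Sgk1 (ENSMUSG00000019970; chr10:21882184-21999903, plus strand), the gene of the element shown above, was at 255, 215, 181 and 172 TPM in control samples 1 to 4. In Siglec-XII samples 1 to 4 it was at 166, 216, 160 and 117 TPM. Siglec-XII 1, 3 and 4 were below the lowest control, and Siglec-XII 2 was above control 2. The mean was 206 TPM ± 37.9 against 165 TPM ± 40.5 (SD, n = 4 each), a difference that did not pass the test (log2 difference -0.33, 95% interval -0.77 to 0.10, limma adjusted P = 0.515, exact permutation P = 0.171). Without Siglec-XII 2 it was -0.47 with a limma adjusted P of 0.400 and passed the unadjusted limit of 0.05, and without Siglec-XII 4 it was -0.18. Over 21 alternatives its adjusted P was between 0.354 and 1.

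Nr3c2 (ENSMUSG00000031618), the mineralocorticoid receptor, was at 27.1, 48.1, 50.6 and 52.0 TPM in control samples 1 to 4. In Siglec-XII samples 1 to 4 it was at 47.5, 60.2, 29.8 and 38.9 TPM. The group means were nearly equal (44.4 and 44.1 TPM), and the spread of both groups was wide. The log2 difference was -0.01, with a 95% interval from -0.60 to 0.57 (limma adjusted P = 0.985), so that a change of up to about 1.49-fold on the TPM + 1 scale in the upward direction lay within the interval.

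Hsd11b2 (ENSMUSG00000031891), which protects the receptor from glucocorticoid, was at 338, 341, 361 and 278 TPM in control samples 1 to 4 and at 368, 369, 344 and 276 TPM in Siglec-XII samples 1 to 4. Sample 4 was the lowest of each group, and the other samples lay close together. The log2 difference was 0.04 (95% interval -0.24 to 0.32, limma adjusted P = 0.881).

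Tsc22d3 (ENSMUSG00000031431), also known as Gilz, is induced by corticosteroids. It was at 38.6, 36.1, 42.0 and 42.1 TPM in control samples 1 to 4 and at 43.3, 40.6, 40.0 and 32.4 TPM in Siglec-XII samples 1 to 4. Siglec-XII 4 was the lowest and the remaining samples were within a narrow range. The log2 difference was -0.03 (95% interval -0.28 to 0.23, limma adjusted P = 0.907). Its relation to Sgk1, the other corticosteroid-induced gene of the set, was weak over the 8 samples (r = 0.345, exact permutation P = 0.406, adjusted P = 0.469; rho = 0, exact permutation P = 1, adjusted P = 1), and r was -0.619 without control 1 and Siglec-XII 4.

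Some of these differences between samples moved with transcript length. The 2295 genes with transcripts of at least 5 kb had a median deviation from the 8-sample mean of -0.12, 0.24, 0.23 and 0.16 on the log2 scale in control samples 1 to 4. In Siglec-XII samples 1 to 4 this median was 0.23, 0.12, -0.36 and -0.53, whereas the 2860 genes with transcripts of up to 1.5 kb stayed between -0.06 and 0.07 in all 8 samples. Control 1 and Siglec-XII 3 and 4 were thus low for long transcripts, and Scnn1a, Nedd4l and Nr3c2 (transcripts of 3.499, 7.79 and 5.92 kb) were below their own means in the same 3 samples. Scnn1a is shorter than 5 kb, and other shorter genes were low in part of these samples. In Siglec-XII 3 and 4, Prss8 (1.85 kb) was at -0.21 and -0.45 and Sgk1 (3.10 kb) at -0.18 and -0.62. Both were above their means in control 1 (0.33 and 0.49). Hsd11b2 and Tsc22d3 (1.84 and 1.97 kb) were at -0.27 each in Siglec-XII 4 and at 0.05 and 0.03 in Siglec-XII 3. Scnn1b (2.48 kb) and Scnn1g (2.99 kb) were above their means in Siglec-XII 3 and 4. The part of transcript length in these values was not tested, beyond a fit with the length trend removed from each sample. In this fit Scnn1b was at 0.58 (limma adjusted P = 0.451) and Scnn1g at 0.64 (limma adjusted P = 0.488). Scnn1a was at -0.03, Nedd4l at 0.14 and Nr3c2 at 0.23 in it, beside -0.21, -0.14 and -0.01 as deposited.

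**Figure D4:**
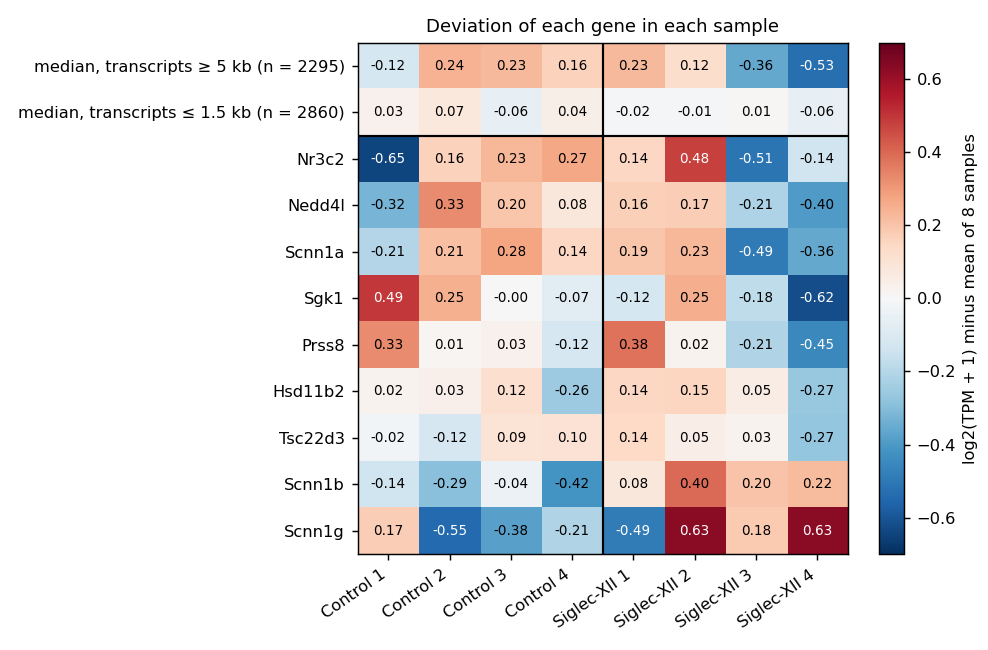
Deviation of log2(TPM + 1) from the mean of the 8 samples (color, with the value in each cell), for the medians of long and short transcripts (top) and for the 9 genes. Nr3c2, Nedd4l and Scnn1a are low in control 1 and Siglec-XII 3 and 4, as are the long transcripts, and Scnn1b is below its mean in all 4 controls and above it in all 4 Siglec-XII samples.

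The tissue was checked against markers. Epithelial genes (Epcam, Cdh1, Krt8, Vil1, Cdx2 and Lgals4) summed to 9810 to 13010 TPM in controls and 10700 to 13100 TPM in Siglec-XII samples, and all 4 Hox genes of distal colon position were detected. Surface colonocyte genes summed to 5187 to 6537 TPM in controls and 5221 to 6657 TPM in Siglec-XII samples, goblet cell genes to 2495 to 3051 and 2836 to 3132 TPM, and fibroblast genes to 8.94 to 25.5 and 10.1 to 62.7 TPM. Smooth muscle genes (Acta2, Myh11, Tagln, Des, Cnn1 and Actg2) summed to 623 to 1003 TPM in controls and 303 to 651 TPM in Siglec-XII samples. At an unadjusted limma P of 0.05, 3 of 6 were lower, beside 7.67% of all genes tested. The defining markers of endothelium, immune cells, adipocytes and enteric neurons were near 0 to 4.47 TPM apart from Fabp4 (up to 25.1 TPM). Endothelial genes summed to 2.07 to 3.32 TPM in controls and 1.24 to 1.52 TPM in Siglec-XII samples, without overlap. Pecam1, the 1 of these 3 genes that was tested, was lower at an unadjusted limma P of 0.05. Of all genes tested, 4.06% were lower without overlap and 7.67% were lower at that P. Immune genes summed to 2.91 to 10.8 and 2.13 to 3.02 TPM, with overlap. The group means of both lists were lower in Siglec-XII samples, as for smooth muscle. Single samples kept part of the smooth muscle order for endothelial genes but not for immune genes. Control 3 was the highest control for smooth muscle (mean log2 level 7.17) and endothelial genes (0.928) and the lowest control for immune genes (0.639). Siglec-XII 4 was the lowest of the 8 samples for smooth muscle (5.37) and endothelial genes (0.423), but not for immune genes. The part of the endothelial and immune lists in the subunit differences was not tested. In bulk tissue fewer cells of a type and less RNA per cell cannot be told apart. The part of smooth muscle in the subunit differences was not tested as a cause; with the mean level of its 6 genes as a covariate Scnn1b was at 0.49 (limma adjusted P = 1) and Scnn1g at 0.22 (limma adjusted P = 1). Relative to the epithelial genes Scnn1b was at 0.50 and Scnn1g at 0.53.

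The rest of the pathway was read from 5 lists with 39 genes, of which 35 were tested. None passed an adjusted P of 0.05 (0 of 35, smallest adjusted P = 0.515). At an unadjusted P of 0.05, 0 were higher and 3 were lower, and 2 were lower in every Siglec-XII sample, shares near those of all genes (7.67% lower and 4.06% lower without overlap). On the deposited scale 8 were above 0 and 27 below, with a median of -0.19 beside -0.15 over all genes. After centring, which puts the median over all genes at 0.06, 22 were above 0 and 13 below.

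Among the proteases that cleave the channel and their inhibitors, 0 of 7 passed at an unadjusted P of 0.05. Furin, which cleaves the α and γ subunits in the Golgi, was at 32.1 TPM ± 3.28 in controls and 26.5 TPM ± 9.31 in Siglec-XII samples (log2 difference -0.33). Serpine2, protease nexin-1, was near 1.76 and 1.43 TPM (log2 difference -0.21).

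Of the 10 tested ubiquitin ligases and kinases, 1 was lower at an unadjusted P of 0.05, beside 7.67% of all genes. This was Wnk1, a kinase upstream of Sgk1, at 19.6, 23.9, 21.6 and 24.4 TPM in control samples 1 to 4 and 20.4, 18.5, 9.77 and 8.39 TPM in Siglec-XII samples 1 to 4. Siglec-XII 3 and 4 were far below the other 6 samples (log2 difference -0.70, limma adjusted P = 0.515), and its transcript of 11.3 kb is among the long ones described above. Nedd4, the relative of Nedd4l, was at 78.9 TPM ± 11.8 and 57.9 TPM ± 23.7 (log2 difference -0.52, limma adjusted P = 0.515). Sgk3 was below the limit for testing.

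Of the 5 tested genes for steroid receptor, enzymes and chaperones, 2 were lower at an unadjusted P of 0.05, beside 7.67% of all genes. The same 2, Hsp90aa1 and Hsp90ab1, were lower in every Siglec-XII sample, beside 4.06% of all genes. Hsp90aa1 and Hsp90ab1 encode cytosolic chaperones that hold steroid receptors in a state able to bind hormone. Hsp90aa1 was at 79.0 to 85.2 TPM in controls and 37.4 to 68.6 TPM in Siglec-XII samples (log2 difference -0.58, limma adjusted P = 0.515). Hsp90ab1 was at 707 to 778 TPM and 381 to 702 TPM (log2 difference -0.46, limma adjusted P = 0.515). Within both genes Siglec-XII 4 was the lowest sample and Siglec-XII 3 the next. The glucocorticoid receptor Nr3c1 overlapped between the groups (log2 difference -0.09), and Hsd11b1, which regenerates glucocorticoid, did not exceed 0.365 TPM in any sample.

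In the list of the sodium pump and potassium channels 0 of 5 passed at an unadjusted P of 0.05. The pump subunit Atp1b3 (69.4 TPM ± 27.2 and 45.3 TPM ± 9.84, log2 difference -0.55) and the pump regulator Fxyd4 (339 TPM ± 60.2 and 376 TPM ± 53.8, log2 difference 0.15) had the smallest P values of these 5 genes. Both overlapped between the groups.

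Other corticosteroid-responsive genes gave 0 of 8 at an unadjusted P of 0.05. Ddit4 was at 92.6 TPM ± 4.70 in controls and 80.3 TPM ± 7.70 in Siglec-XII samples (log2 difference -0.21, limma adjusted P = 0.515), and Errfi1 at 31.3 TPM ± 7.41 and 25.9 TPM ± 4.397 (log2 difference -0.25). Fkbp5 and Klf9, textbook targets of corticosteroid receptors, had log2 differences of 0.07 each and were the 2 tested genes of this list above 0. The other 6 were below 0, between -0.26 and -0.03. The median of the list was -0.14, beside -0.15 over all genes tested. Pdk4 and Angptl4 were below the limit for testing.

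**Figure D5:**
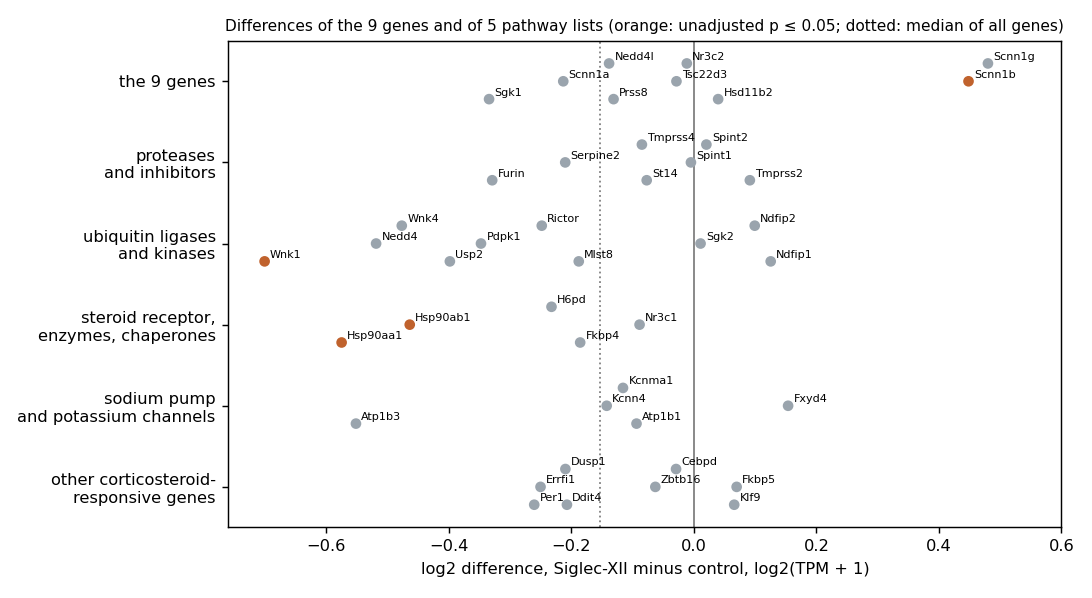
Log2 difference, Siglec-XII minus control, of the 9 genes (top row) and of the 35 tested genes of 5 pathway lists. Orange points are at an unadjusted limma P of 0.05 or less (Scnn1b higher, Wnk1, Hsp90aa1 and Hsp90ab1 lower), and the dotted line is the median of all genes tested (-0.15).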

How the data were processed

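RNA from 4 control and 4 Siglec-XII samples of distal colon was used, grouped by the labels, which give no batch. The authors deposited log2(TPM + 1) per gene, made with kallisto (version 0.45.0 and GRCm38 per the submitters' processing notes; the paper's Methods name another kallisto version and a human reference, although the genes carry mouse identifiers). Library kits differ between the labels (total RNA) and the Methods (mRNA). The study design speaks of 3 mice per condition, while 4 samples per group are listed, and all 8 were used. TPM keeps no depth, so the number of samples limits the precision.

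Genes that reached a TPM of 1 in 4 or more samples were fitted in limma 3.58.1 (R 4.3.3) by lmFit and eBayes with a variance trend, two-sided and with Benjamini-Hochberg adjustment, after a test of the code on simulated data. Single values were also compared by exact permutation tests (scipy 1.17.1, Python 3.11.15). Gene models were GENCODE M21 on GRCm38, holding 98.5% of the deposited gene identifiers. Figures were drawn with matplotlib 3.10.9.

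The 9 genes and the pathway and marker lists were chosen with earlier results of these data known. Named besides the 9 genes are the 2 genes of each pathway list with the smallest P, the 3 genes most like each channel subunit, tested genes within 100 kb of a subunit and marker genes. An item of the pathway lists is not reported here. Outside this rule, Sgk3, Nr3c1, Hsd11b1, Fkbp5, Klf9, Pdk4, Angptl4, Pecam1 and Fabp4 were named after their values were seen. Alternatives were no filter or a TPM of at least 5, a pseudocount of 0.1, quantile normalization, median centring, array weights, no variance trend, the replicate number as a block, a smooth muscle covariate, levels relative to epithelial genes, and samples left out. Fits without control 1 and Siglec-XII 3 and 4 and with a lowess length trend removed were added after seeing the data.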

Additional observations from a re-analysis of the deposited data

Results flagged for a closer look

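In 38 groups of 4 samples (19 named genes in both groups), 2 held a sample that stood apart from the rest by Dixon's criterion, where chance gives about 1.9. Nr3c2 in control 1 was at 27.1 TPM beside 48.1 to 52.0 TPM in the other controls, a gap of 0.882 of the range of the group. Errfi1 in Siglec-XII 4 was at 19.4 TPM beside 27.3 to 28.8 TPM (gap 0.862 of the range).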

How the results depend on the processing

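None of the 9 genes passed an adjusted P of 0.05 under any of the 21 alternatives. Scnn1b was higher at an unadjusted P of 0.05 in 21 of 21, with a log2 difference from 0.38 to 0.67 (adjusted P from 0.113 to 1), and Scnn1g was above 0 in 21 of 21, from 0.22 to 0.79. The number of the 9 genes at an unadjusted P of 0.05 went from 1 to 2 with array weights (Scnn1g added) and with a replicate block (Sgk1 added), and was 1 to 2 when 1 sample was left out (Scnn1g without Siglec-XII 1, Sgk1 without Siglec-XII 2). The replicate block left 4 genes past the adjusted limit and gave Scnn1b a limma adjusted P of 0.629. Same-numbered samples did not deviate together (r from -0.204 to 0.103, and 0 samples correlated best with their own number). This check gave no sign of pairing by number. It cannot exclude pairing, because the sample shifts described above enter the same deviations. Genes past the adjusted limit, 5 of those tested, numbered 18 with array weights, 8 with no filter, 3 when a TPM of 5 was required, 2 with the smooth muscle covariate, 2 without Siglec-XII 3 and 4, 2 also without control 1, and 2 to 6 with 1 sample left out (3 without Siglec-XII 1 or 4, 2 without Siglec-XII 2).

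The genes other than Scnn1b and Scnn1g changed sign under some alternatives, with none past the adjusted limit, and the cause was not tested. Scnn1a was at 0.0037 with array weights, 0.11 without Siglec-XII 3 and 4 and 0.0017 also without control 1. Prss8 was at 0.0816 with median centring, 0.0584 with array weights, 0.15 with the smooth muscle covariate, 0.14 without Siglec-XII 3 and 4 and 0.23 also without control 1. Nedd4l was at 0.0166 with quantile normalization, 0.0743 with centring, 0.0222 with the covariate, 0.10 without Siglec-XII 3 and 4 and 0.14 with the length trend removed. Sgk1 was at 0.0814 with array weights and 0.0073 without control 1 and Siglec-XII 3 and 4. Nr3c2 was at 0.11 with quantile normalization, 0.20 with centring, 0.21 with array weights, 0.0301 with the covariate, 0.0371 relative to epithelial genes, 0.31 without Siglec-XII 3 and 4, 0.0896 also without control 1, 0.23 with the length trend removed, and from -0.23 to 0.16 with 1 sample left out. Hsd11b2 was from -0.0389 to 0.14 with 1 sample left out. Tsc22d3 was at 0.0901 with quantile normalization, 0.18 with centring, 0.0273 with array weights, 0.19 with the covariate, 0.0202 relative to epithelial genes, 0.0786 without Siglec-XII 3 and 4, 0.0667 also without control 1, 0.0767 with the length trend removed, and from -0.0794 to 0.0564 with 1 sample left out.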
